A study of Oryza sativa with 4 samples.

Results

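PDIL1-1, PDIL2-3, BiP1 and bZIP50 are rice genes for folding storage proteins in the endoplasmic reticulum (ER). They were chosen as a given list of loci, matched on the locus identifier without its transcript suffix, and all 4 of the 4 were found among 31453 listed genes. The study compared Sharbati, a rice cultivar with 24.88 ppm of iron in brown rice, with Lalat, a cultivar with 7.80 ppm. Developing grain and roots of soil-grown net-house plants were taken 15 days after panicle emergence, and poly(A) RNA was sequenced as paired-end libraries. Each cultivar gave 1 library from grain and 1 from root, so that the 4 groups have no replicate. The labels give no treatment or genetic change, and do not say how many plants went into a library. The labels describe no dissection of the grain, so endosperm, aleurone and embryo share a library, and fewer cells of a type cannot be told apart from less RNA per cell.

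Cereal storage proteins enter the ER of endosperm cells during grain filling and fold there before they are packed into protein bodies. In rice, glutelins move on to storage vacuoles, whereas prolamins stay behind in bodies that bud from the ER itself. Chaperones hold the unfolded chains, disulfide isomerases join the right cysteines, and the unfolded protein response raises both when folding falls behind.

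The PDI genes encode protein disulfide isomerases. PDIL1-1 is the isomerase that proglutelin folding needs in rice endosperm, and its loss gives the esp2 mutant. The gene LOC_Os11g09280 lies on chromosome 11 from 4971247 to 4975064 in the coordinates of the deposited tables, whose build the sources used here do not name. PDIL1-1 stood at 390 FPKM (a fragment count scaled to transcript length and to library depth, so that genes can be compared) in Sharbati grain, 909 in Lalat grain, 207 in Sharbati root and 263 in Lalat root. Both grain values were above both root values, and Lalat was above Sharbati in each organ. PDIL1-1 ranked 146 of 25305 genes above 0 in Sharbati grain, 71 of 24886 in Lalat grain, 321 of 15584 in Sharbati root and 551 of 23740 in Lalat root. Its place was thus also higher in grain within each library's own order, which does not depend on how the libraries were scaled.

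PDIL2-3 is an isomerase that in rice endosperm is found with the prolamin bodies rather than with proglutelin. Its locus, LOC_Os09g27830, lies on chromosome 9 from 16930986 to 16935970. PDIL2-3 stood at 58.5 FPKM in Sharbati grain, 109 in Lalat grain, 31.8 in Sharbati root and 102 in Lalat root. Both Lalat libraries gave similar values, and Sharbati root was the lowest of the 4. PDIL2-3 ranked 975 and 524 in the grain libraries of Sharbati and Lalat, and 2502 and 1596 in their root libraries.

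BiP1 encodes the Hsp70 chaperone of the ER lumen, which binds nascent prolamins and holds them in the ER. Its locus, LOC_Os02g02410, lies on chromosome 2 from 838716 to 842672. BiP1 stood at 693 FPKM in Sharbati grain, 593 in Lalat grain, 68.1 in Sharbati root and 183 in Lalat root. It was the one gene of the 4 with its highest value in Sharbati, and both grain values were above both root values. Of all compared genes, 14.0% were 2-fold higher in grain than root in Sharbati and 7.11% in Lalat. BiP1 ranked 89 and 101 in the grain libraries of Sharbati and Lalat, against 1172 and 851 in their root libraries.

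bZIP50 encodes a transcription factor of the unfolded protein response, whose mRNA is spliced by the ER sensor IRE1 when unfolded proteins build up. The splice itself cannot be read from a gene's FPKM. The locus LOC_Os06g41770 lies on chromosome 6 from 25041771 to 25044111. bZIP50 stood at 24.98 FPKM in Sharbati grain, 49.5 in Lalat grain, 60.4 in Sharbati root and 111 in Lalat root. Its order of organs was the opposite of that of the other three genes, with both root values above both grain values. That order was common, as 51.0% of compared genes were 2-fold lower in grain than root in Sharbati and 59.7% in Lalat. By rank the organs were mixed, at 2083 and 1187 in Sharbati and Lalat grain and 1339 and 1457 in Sharbati and Lalat root. No other listed locus overlapped any of the 4 genes.

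**Figure D1:**
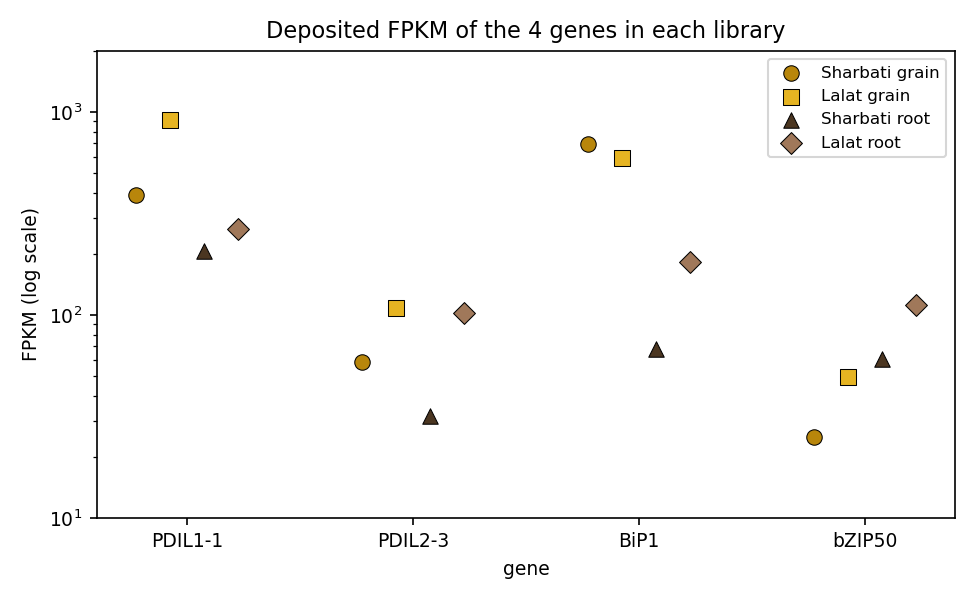
Deposited FPKM (log scale) of PDIL1-1, PDIL2-3, BiP1 and bZIP50, 1 point for each of the 4 libraries. BiP1 at 693 and 593 FPKM and PDIL1-1 at 390 and 909 FPKM are highest in the grain libraries, while bZIP50 is higher in root, at 60.4 and 111 FPKM, than in grain, at 24.98 and 49.5 FPKM.

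A few facts of the libraries bear on all values. Fragment numbers were not used here, but the FPKM that 1 fragment is worth was inferred from genes listed at 0 in the partner library, over loci as long as these 4. Its median was 0.854 for Sharbati root, against 0.0592 for Lalat root, 0.0249 for Lalat grain and 0.0179 for Sharbati grain, so Sharbati root was the shallowest library. There the levels of PDIL2-3, bZIP50, BiP1 and PDIL1-1 came to 37.2, 70.7, 79.7 and 243 times that median. The 10 highest genes held 38.2% of FPKM in Sharbati grain, 29.2% in Lalat grain, 21.5% in Sharbati root and 8.61% in the root of Lalat. The median log2 ratio of Sharbati to Lalat, over genes that reached 1 FPKM in both libraries, was -0.29 in grain (10531 genes) and -0.999 in root (12071 genes). For grain over root it was -0.53 in Sharbati (8331 genes) and -1.20 in Lalat (11772 genes). Ratios are therefore given as deposited and again after division by this median, here called median-scaled.

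Markers of the sampled organs were read beside the 4 genes. The 9 endosperm markers (6 of them glutelin genes) summed to 8858 FPKM in Sharbati grain, with 4 of 9 above 0, and to 30552 in Lalat grain, with 5 of 9 above 0. Another 4 of the 9 are not listed in the grain tables, so these sums cover part of the list. The glutelin gene GluA2 alone gave 12212 FPKM in Lalat and was listed at 0 in Sharbati, with a p-value of 1 in the authors' deposited table, and without it the difference went from 3.45-fold to 2.07-fold. The endosperm regulators RPBF and RISBZ1 had the opposite order, RPBF with 882 FPKM in Sharbati grain against 381 in Lalat grain and RISBZ1 with 192 against 134. In root the same markers summed to 35.1 FPKM in Sharbati, with 6 of 9 above 0, and to 1530 FPKM in Lalat, with all 9 above 0. The oleosin genes OLE16 and OLE18, 2 markers of embryo and aleurone, summed to 99.8 FPKM in Sharbati grain, 226 in Lalat grain, 2.50 in Sharbati root and 2.02 in the root of Lalat. The 3 root markers Lsi1, Lsi2 and RCc3 summed to 0.304 and 0.555 FPKM in Sharbati and Lalat grain and to 258 and 127 FPKM in Sharbati and Lalat root, with RCc3 listed at 0 in Sharbati root.

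In grain, the isomerases and bZIP50 were lower in Sharbati than in Lalat, and BiP1 was slightly higher. Ratios are log2((Sharbati FPKM + 1)/(Lalat FPKM + 1)), folds are plain ratios of FPKM, and a gene counts as apart at 2-fold or more on the log2 scale. PDIL1-1 was 2.33-fold lower in Sharbati grain, a log2 ratio of -1.22 as deposited and -0.93 median-scaled. PDIL2-3 was 1.85-fold lower (log2 ratio -0.88, median-scaled -0.59). bZIP50 was 1.98-fold lower (log2 ratio -0.96, median-scaled -0.68). BiP1 was 1.17-fold higher (log2 ratio 0.22, median-scaled 0.51).

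Thus 1 of the 4 genes, PDIL1-1, was 2-fold apart between the grain libraries, on the lower side, where 17.4% of 13417 compared genes stood, and none was on the higher side, where 6.31% stood. After median scaling none of the 4 was 2-fold apart, with 9.87% of all genes higher and 12.0% lower. PDIL1-1 had a lower ratio than most genes, since 10.8% of compared genes lay below it. The share below was 19.0% for bZIP50, 22.5% for PDIL2-3 and 76.6% for BiP1. In the authors' deposited table none of the 4 was called different between the grain libraries, with p-values of 0.104 for PDIL1-1, 0.157 for PDIL2-3, 0.775 for BiP1 and 0.116 for bZIP50, while 1102 of 28339 genes (3.89%) were called.

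The balance between chaperone and isomerase differed between the grain libraries. PDIL1-1 stood at 0.562 of the BiP1 level in Sharbati grain and at 1.53 times that level in Lalat grain. These quotients are taken within a library and do not depend on its scaling. BiP1 stood at 27.8 times bZIP50 in Sharbati grain and 12.0 times in Lalat grain. The isomerases kept closer proportions, with PDIL1-1 at 6.65 times PDIL2-3 in Sharbati grain and 8.37 times in Lalat grain. PDIL2-3 stood at 2.34 times bZIP50 in Sharbati grain and 2.19 times in Lalat grain. Without replicates, the spread of such quotients between plants is unknown.

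The clients of these proteins were summed from the glutelin and prolamin genes above 0 in both grain libraries. The 7 glutelin loci, whose products PDIL1-1 acts on, summed to 11464 FPKM in Sharbati and 19319 in Lalat, 1.69-fold lower in Sharbati. With GluA2, which is listed at 0 in Sharbati, the Lalat sum was 31531 FPKM and the difference 2.75-fold. The 18 prolamin loci, whose products BiP1 and PDIL2-3 accompany, summed to 246713 FPKM in Sharbati and 119686 in Lalat, 2.06-fold higher in Sharbati. That sum rested on PROLM19, PROLM20 and PROLM22, which together held 101623 FPKM in Sharbati and 14.3 in Lalat, and without these 3 loci, a choice made with their values in view, the difference was 1.21-fold. Of the 18 loci, 8 were 2-fold higher and 4 were 2-fold lower in Sharbati, among them PROLM15 at 8667 FPKM against 41102. Among the 7 glutelin loci, 1 was 2-fold lower in Sharbati grain (14.3%, against 17.4% of all genes) and none was higher. Median-scaled, 1 was higher and 1 lower, against 9.87% and 12.0% of all genes. Their median log2 ratio was -0.40, or -0.11 median-scaled. PDIL1-1 and the glutelin sum were both higher in Lalat grain, and so was PDIL2-3, while the single loci of both storage families were mixed. With 1 library for each cultivar, these are 2 points for each quantity, and no relation was tested. The sums leave out 8 of 15 glutelin loci, 7 of them not listed in the grain tables and 1 listed at 0 in 1 library, and 10 of 28 prolamin loci, 5 not listed and 5 listed at 0 in 1 library. The authors' deposited table gives all 6 loci listed at 0 a p-value of 1, while their other library stood at 12212 FPKM or more. PROLM3, PROLM6 and LOC_Os05g26400 carry the same value, and counting it once left the prolamin difference at 2.08-fold.

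In root, all 4 genes were lower in Sharbati than in Lalat as deposited, as were most genes. PDIL1-1 was 1.27-fold lower in Sharbati root (log2 ratio -0.34), and it was higher after median scaling (0.65). PDIL2-3 was 3.21-fold lower (log2 ratio -1.65, median-scaled -0.67). BiP1 was 2.68-fold lower (log2 ratio -1.41, median-scaled -0.42). bZIP50 was 1.85-fold lower (log2 ratio -0.87), and was slightly on the higher side after median scaling (0.11).

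So 2 of the 4 genes, PDIL2-3 and BiP1, were 2-fold lower in Sharbati root, where 46.7% of 13653 compared genes stood, and none was 2-fold higher, where 5.51% stood. After median scaling none of the 4 was 2-fold apart, with 17.2% of all genes higher and 21.2% lower. The share of compared genes with a lower ratio was 25.1% for PDIL2-3, 32.3% for BiP1, 51.8% for bZIP50 and 71.1% for PDIL1-1, so all 4 lay well inside the distribution of genes. The authors' deposited table called none of the 4 in root, with p-values of 0.743 for PDIL1-1, 0.0955 for PDIL2-3, 0.171 for BiP1 and 0.346 for bZIP50, and called 287 of 25225 genes (1.14%).

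**Figure D2:**
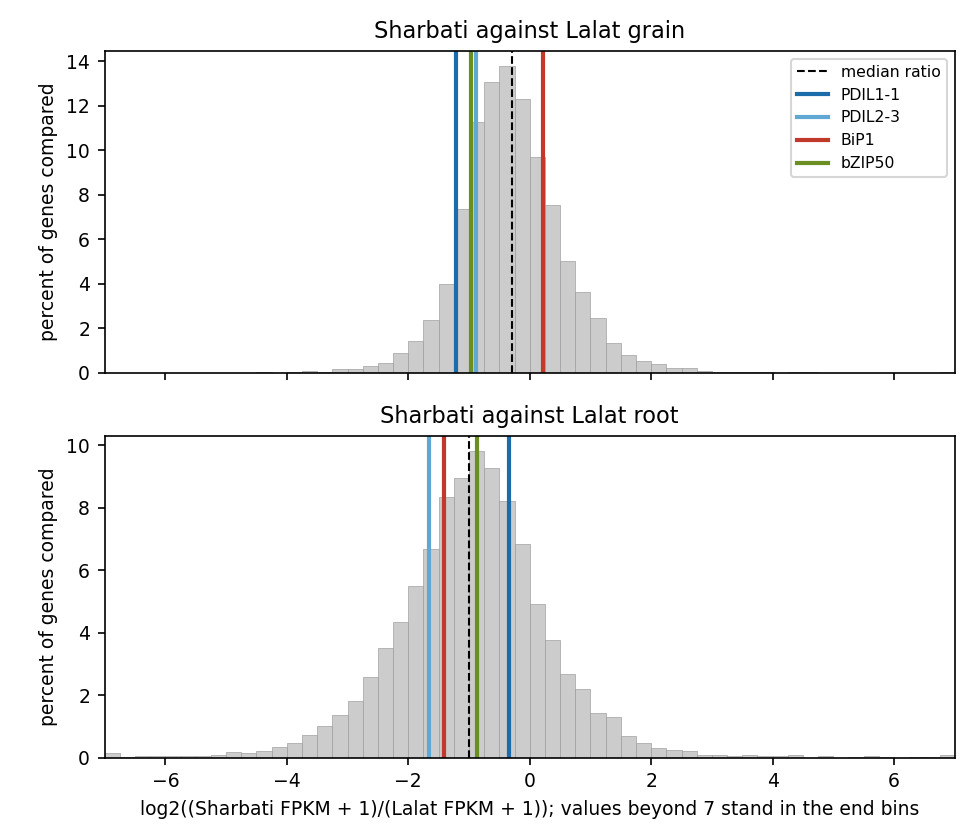
Share of compared genes (percent) by log2((Sharbati FPKM + 1)/(Lalat FPKM + 1)) in grain (upper panel) and root (lower panel), with coloured lines at the 4 genes and a dashed line at the median over genes reaching 1 FPKM in both libraries. In grain PDIL1-1 lies at -1.22 and BiP1 at 0.22 on either side of the median of -0.29, and in root all 4 lie between -1.65 and -0.34 around a median of -0.999.

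Storage protein transcripts were also listed in root, and they stand beside the root result. The 10 glutelin loci above 0 in both root libraries summed to 72.2 FPKM in Sharbati and 2312 in Lalat, and the 16 prolamin loci to 108 and 3605 FPKM. As deposited, Lalat root was thus 32.0-fold higher for glutelins and 33.4-fold higher for prolamins. All 4 genes, like most compared genes, were also higher in Lalat root as deposited. All 10 glutelin loci were 2-fold lower in Sharbati root, also median-scaled. Of the 16 prolamin loci 11 were lower and 2 higher in Sharbati root, or 10 and 4 median-scaled. Most of the 16 prolamin loci stood at 2.09 FPKM or less in Sharbati root, with PROLM3 at 0.360. The 0.854 FPKM inferred there for 1 fragment comes from loci as long as the 4 genes. No such value was inferred for loci of prolamin length. For most prolamin loci, the root counts and ratios may thus rest on few fragments in Sharbati, or on about 1 or less. Values shared by several loci, as by PROLM9 and LOC_Os05g26386, were counted for each. For each 1000 FPKM of all listed storage protein genes, Lalat root held 25.9 FPKM of BiP1, 37.4 of PDIL1-1, 14.5 of PDIL2-3 and 15.8 of bZIP50. Lalat grain held 3.26 FPKM of BiP1, 4.99 of PDIL1-1, 0.596 of PDIL2-3 and 0.272 of bZIP50 for each 1000. The sums behind these values do not cover the same loci. In Lalat root 14 glutelin and 26 prolamin loci were above 0, against 8 and 20 in Lalat grain. On these unlike sums the 4 genes stood higher against storage transcripts in Lalat root than in Lalat grain. The size of that difference cannot be read from them. How much of the root difference moves with these transcripts was not tested.

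The grain and root tables are separate deposited comparisons, normalised separately, so levels across organs carry that limit. BiP1 had the highest grain-to-root ratio of the 4 genes in Sharbati, at 10.2-fold (log2 ratio 3.33, median-scaled 3.86), and stood 3.25-fold higher in grain in Lalat (1.70, median-scaled 2.90). PDIL1-1 was 1.88-fold higher in grain in Sharbati (log2 ratio 0.91, median-scaled 1.43) and 3.45-fold higher in Lalat (1.78, median-scaled 2.99). PDIL2-3 was 1.84-fold higher in grain in Sharbati (log2 ratio 0.86, median-scaled 1.38), and in Lalat the organs differed by 1.06-fold (0.09, median-scaled 1.29).

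bZIP50 was 2.42-fold higher in root in Sharbati, a log2 ratio of -1.24 for grain over root. In Lalat bZIP50 was 2.25-fold higher in root (log2 ratio -1.16). Median-scaled, the ratio was -0.73 in Sharbati and 0.03 in Lalat, so the direction in Lalat flipped under this scaling.

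Within Sharbati 1 of the 4 genes (BiP1) was 2-fold higher in grain and 1 (bZIP50) 2-fold lower, against 14.0% and 51.0% of 12648 compared genes. Median-scaled, 3 were higher and none lower, against 20.0% and 43.3% of all genes. Within Lalat 2 of the 4 (PDIL1-1 and BiP1) were higher and 1 (bZIP50) lower, against 7.11% and 59.7% of 17533 genes. Median-scaled, 3 were higher and none lower in Lalat, against 17.6% and 37.6%.

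Against all compared genes, BiP1 had a higher grain-to-root ratio than 97.8% of genes in Sharbati and 95.9% in Lalat. PDIL1-1 was above 85.0% in Sharbati and 96.2% in Lalat. For PDIL2-3 the shares were 84.5% and 84.7%, and for bZIP50 they were 44.5% and 54.7%. By this reading, which a common scaling of a library moves little, bZIP50 sat near the middle of all genes in both cultivars and the chaperone and isomerases well above it.

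The quotients within a library show the same contrast between organs. BiP1 stood at 1.13 times bZIP50 in Sharbati root and 1.64 times in Lalat root, against 27.8 and 12.0 times in grain. PDIL1-1 stood at 3.43 times bZIP50 in Sharbati root and 2.36 times in Lalat root, against 15.6 and 18.4 times in grain. PDIL2-3 was below bZIP50 in both root libraries, at 0.526 and 0.914 of its level in Sharbati and Lalat, and above it in both grain libraries.

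PDIL1-1 dominated its family. Over the loci described as protein disulfide isomerases, of which 15 were above 0 in each grain library, 12 in Sharbati root and 14 in Lalat root, PDIL1-1 held the largest share in every library. The share was 74.6% of summed FPKM in Sharbati grain, 68.3% in Lalat grain, 45.9% in Sharbati root and 37.6% in Lalat root. PDIL2-3 held 11.2% in Sharbati grain, 8.16% in Lalat grain, 7.03% in Sharbati root and 14.6% in Lalat root, which placed it at rank 2, 3, 5 and 2 in the family. The whole family summed to 522 FPKM in Sharbati grain, 1330 in Lalat grain, 452 in Sharbati root and 701 in Lalat root. LOC_Os01g58194, LOC_Os04g51920 and LOC_Os11g11440 are counted in the family by their description. Transcripts that the authors assembled over these loci were matched to nucleoredoxins, and whether their products act in the ER was not tested.

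In Lalat grain PDIL1-4, another member with disulfide isomerase domains, was second to PDIL1-1. PDIL1-4 stood at 31.4 FPKM in Sharbati grain, 234 in Lalat grain, 5.58 in Sharbati root and 20.3 in Lalat root. Its share of the family was 6.02% in Sharbati grain and 17.6% in Lalat grain, and 1.24% and 2.89% in Sharbati and Lalat root. In root more of the family total lay with PDIL2-1, PDIL2-2 and PDIL5-1. PDIL5-1 alone held 14.4% in Sharbati root, above PDIL2-3, and 7.30% in Lalat root, against 3.22% and 1.73% in Sharbati and Lalat grain.

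**Figure D3:**
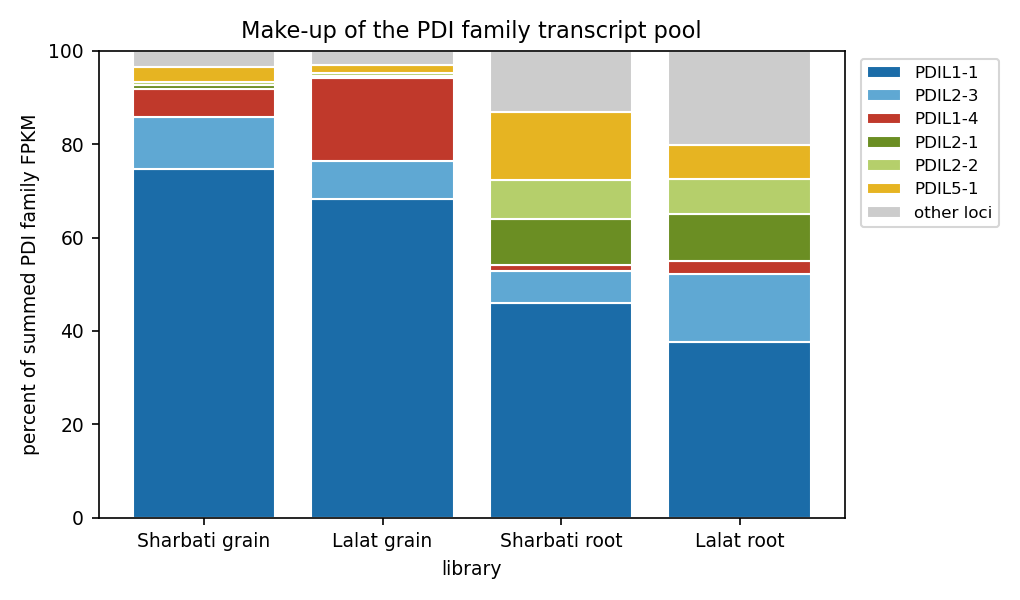
Make-up of the protein disulfide isomerase (PDI) family in each library, as the percent of the family's summed FPKM held by 6 named genes and by the other loci. PDIL1-1 holds 74.6% and 68.3% in the grain libraries and 45.9% and 37.6% in the root libraries, and PDIL1-4 reaches 17.6% in Lalat grain.

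BiP1 was nearly the sole transcript among the BiP genes that could be read. Among the loci listed as BiP genes it held between 99.67% and 100% of the FPKM in the 4 libraries. BiP4 (LOC_Os05g30480) was listed in no library and BiP5 (LOC_Os08g09770) in no root library, so these were not weighed there. In Sharbati root, the shallowest library, no other BiP locus was above 0. Among all loci described as DnaK (Hsp70) proteins, a family that also serves other compartments, BiP1 held 29.6% in Sharbati grain, 38.3% in Lalat grain, 3.34% in Sharbati root and 8.06% in Lalat root. BiP1 was the highest Hsp70 transcript in Lalat grain, with rank 2 in Sharbati grain and rank 3 in both root libraries. Reads shared between near-identical Hsp70 copies could be split by the authors' counting, so these shares carry that uncertainty.

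bZIP50 held a larger place among bZIP transcription factors in Lalat grain than in Sharbati grain. Its share of the FPKM of loci described as bZIP factors was 3.64% in Sharbati grain, 11.7% in Lalat grain, 12.0% in Sharbati root and 7.14% in Lalat root. bZIP50 was the highest of 27 such loci above 0 in Sharbati root, and had rank 3 of 41 in Lalat grain, 3 of 49 in Lalat root and 5 of 42 in Sharbati grain. A second bZIP locus on the unfolded protein response list, LOC_Os07g44950, stood at 32.8 FPKM in Sharbati grain, 31.1 in Lalat grain, 9.54 in Sharbati root and 35.2 in Lalat root. Another, LOC_Os05g34050, stood at 4.17, 4.15, 19.8 and 40.1 FPKM in the same order, and so was higher in root, as bZIP50 was. Neither showed the 1.98-fold difference between grain libraries seen for bZIP50.

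The 4 genes were set beside 70 other loci of the ER pathway. The lists cover the PDI family, other chaperones, unfolded protein response regulators, protein entry, N-glycosylation, exit vesicles and ER-associated degradation. In grain 56 of the 70 could be compared. As deposited 1 was 2-fold higher and 8 were lower in Sharbati (14.3%, against 17.4% of all genes), with a median log2 ratio of -0.48 against -0.35 for all compared genes. Median-scaled, 3 were higher and 5 lower. PDIL1-1, at -1.22, was thus below the median of its pathway in grain, and BiP1, at 0.22, above it.

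The single locus 2-fold higher in Sharbati grain was ERO1, the oxidase that recharges disulfide isomerases. ERO1 stood at 145 FPKM in Sharbati grain, 54.5 in Lalat grain, 9.34 in Sharbati root and 79.0 in Lalat root. Like BiP1, ERO1 was higher in Sharbati grain and lower in Sharbati root. In the PDI family 4 of 10 compared loci were 2-fold lower in Sharbati grain, against 17.4% of all genes, and none was higher. Median-scaled, 3 of 10 were lower, against 12.0%. PDIL1-4 and PDIL1-5 were among them. PDIL1-5 stood at 3.52 FPKM in the Sharbati grain library and 14.9 in that of Lalat.

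Among 28 compared loci of protein entry, 4 were 2-fold lower in Sharbati grain (14.3%, against 17.4% of all genes) and none was higher. Median-scaled, 2 were lower and 2 higher. LOC_Os03g11440, described as the alpha subunit of the Sec61 translocation channel, stood at 36.8 FPKM in the Sharbati grain library and 165 in that of Lalat. No locus of N-glycosylation (5 compared), exit vesicles (4), ER-associated degradation (2) or the response regulators (2) was 2-fold apart between the grain libraries on the log2(FPKM + 1) scale, as deposited or median-scaled. That depends on the pseudocount, since plain folds reached 2.20 for the N-glycosylation locus LOC_Os04g57890 and 2.15 and 2.08 for the degradation loci LOC_Os03g15350 and LOC_Os02g10820, all lower in Sharbati. With a pseudocount of 0.1, the other ER loci lower in Sharbati grain numbered 14 in place of 8. The authors' deposited table called 4 of 69 other ER loci in grain, all lower in Sharbati: PDIL1-4, PDIL1-5, LOC_Os03g11440 and the signal peptidase locus LOC_Os02g58139. That is 5.8% of the loci, against 3.89% of all genes, of which 839 of the 1102 called were also lower in Sharbati.

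In root 56 of the 70 loci could be compared. As deposited 1 was 2-fold higher and 22 lower in Sharbati (39.3%, against 46.7% of all genes), with a median log2 ratio of -0.85 against -0.92 for all compared genes. Median-scaled, 7 were higher and 8 lower, with a median of 0.12. The 1 locus higher as deposited was LOC_Os01g58194, at 4.23 FPKM in Sharbati root and 0.924 in Lalat root, also matched to a nucleoredoxin. BiP1 (-1.41) and PDIL2-3 (-1.65) were below the pathway median in root, and PDIL1-1 (-0.34) was above it. Of 6 compared chaperone loci, 4 were 2-fold lower in Sharbati root (2 median-scaled), against 46.7% of all genes (21.2% median-scaled), among them ERO1 and LOC_Os06g50300. LOC_Os06g50300, described as a heat shock protein, stood at 57.7 FPKM in the Sharbati root library and 189 in that of Lalat. The authors' deposited table called 0 of 67 other ER loci in root.

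Across organs, BiP1 and PDIL1-1 were higher in grain, where most compared genes, ER loci or not, were lower than in root. In Sharbati 55 of the other ER loci could be compared, and 12 were 2-fold higher and 26 lower in grain than in root (18 and 21 median-scaled), with a median log2 ratio of -0.87 against -1.04 for all genes. As 47.3% of these loci were lower, against 51.0% of all genes, their share was near the background. In Lalat, of 61 compared, 3 were higher and 32 lower (16 and 13 median-scaled), with a median of -1.03 against -1.30. Here too the 52.5% lower was near or under the 59.7% of all genes. Among chaperones 5 of 6 compared loci were 2-fold lower in grain in each cultivar, also when median-scaled, against 51.0% of all genes in Sharbati and 59.7% in Lalat (43.3% and 37.6% median-scaled).

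The calreticulins, which fold glycoproteins with the help of sugar tags, were the clearest of these. LOC_Os07g14270 stood at 13.0 and 15.7 FPKM in Sharbati and Lalat grain and at 251 and 400 FPKM in their roots. LOC_Os01g67054 stood at 1.74 and 2.76 FPKM in grain and 106 and 233 FPKM in root. Thus BiP1 stood at its highest in the organ where these calreticulin transcripts were lowest. All 5 N-glycosylation loci were 2-fold lower in grain in each cultivar, against 51.0% of all genes in Sharbati and 59.7% in Lalat. After median scaling 5 of 5 were in Sharbati, against 43.3%, and 1 of 5 in Lalat, against 37.6%.

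In the PDI family 6 of 9 compared loci were 2-fold lower in Sharbati grain than Sharbati root, and 9 of 12 in Lalat, against 51.0% and 59.7% of all genes. Median-scaled, 5 of 9 and 5 of 12 were, against 43.3% and 37.6%, so the Lalat share was near the background. PDIL2-1 stood at 4.39 and 6.55 FPKM in Sharbati and Lalat grain and at 43.8 and 70.1 FPKM in root, and PDIL2-2 at 3.69 and 9.37 FPKM in grain and 38.6 and 52.7 FPKM in root. PDIL1-4 was the 1 other family locus 2-fold higher in grain in each cultivar. PDIL1-1 reached 2-fold in Lalat (log2 ratio 1.78) and not in Sharbati (0.91). LOC_Os01g38510, described as the beta subunit of Sec61, stood at 210 and 250 FPKM in grain and at 13.0 and 73.5 FPKM in root, the same order of organs as BiP1. The other loci of that description had the opposite order in both cultivars. In Sharbati and Lalat, LOC_Os11g01300 stood at 7.22 and 26.8 FPKM in grain and 51.4 and 56.1 in root. LOC_Os12g01260 stood at 9.42 and 18.7 in grain and 79.1 and 83.6 in root, and LOC_Os12g07490 at 13.4 and 25.2 against 23.3 and 69.3.

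The profiles of the 4 genes over the 4 libraries were compared as log2(FPKM + 1) centred on each gene's mean, by the largest difference in any library. Among themselves PDIL1-1 and PDIL2-3 were the closest pair, 1.09 apart on this log2 scale, and BiP1 and bZIP50 the farthest, 2.45 apart. PDIL1-1 and BiP1 were 1.31 apart, PDIL2-3 and bZIP50 1.23, PDIL1-1 and bZIP50 1.54, and PDIL2-3 and BiP1 1.57.

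Each gene had closer matches among 8682 other genes searched than among the other three. The genes nearest to PDIL1-1 were LOC_Os05g43040, a tetratricopeptide repeat protein (0.20), LOC_Os10g35670, a RING zinc finger protein (0.22), and LOC_Os02g38350, a protein with a regulator of chromosome condensation domain (0.23). Nearest to PDIL2-3 were LOC_Os03g25720 (0.09), the pentatricopeptide repeat locus LOC_Os02g03970 (0.10) and LOC_Os05g33550, a methyl-binding domain protein (0.11). Those nearest to BiP1 were LOC_Os03g21210, an endoglucanase (0.11), LOC_Os08g34150, a temperature-induced lipocalin (0.17), and LOC_Os08g34950, a chaperonin (0.21). bZIP50 was matched by LOC_Os09g23160, an annexin (0.03), LOC_Os02g10230, a metal cation transporter (0.03), and LOC_Os03g46340, a pleckstrin homology protein (0.05). These are likenesses over 4 values each, picked as the closest among many genes, and carry no test.

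With 1 library in each group, none of these differences could be set against the spread between plants, and none was tested. The p-values quoted from the authors' deposited table compare pairs of libraries, not cultivars.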

How the data were processed

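Poly(A) RNA of developing grain and root of 2 cultivars was sequenced in 4 libraries, 1 for each group, from 4 µg of total RNA with 18 cycles of PCR, per the labels' protocols. Per the submitters' processing notes, the tools were TopHat 1.3.3, Bowtie 0.12.9, Cuffdiff and Cufflinks 1.3.0. No source used here names the build. The values used are the FPKM deposited by the authors for each organ's pair of libraries, with the p-value and the yes or no call of the authors' deposited comparison at a false discovery rate of 0.05. A gene that an organ's tables do not list was left out there, not set to 0. Distinct values of a gene's transcripts were summed.

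Ratios were log2((a + 1)/(b + 1)) with a pseudocount of 1 FPKM, for genes above 0 in both libraries and at 1 FPKM or more in at least 1. A difference of 2-fold or more on that scale counted as apart. No test was made. Fragment numbers were not used here, so the FPKM of 1 fragment was inferred from genes at 0 in the partner library that share the one deposited p-value of a single fragment. This value is an inference, and it gives no interval for any level. Where an assembled transcript is quoted, its FPKM comes from the authors' deposited sheets of unannotated transcripts, and its library from the sheet's name.

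The 4 genes and all lists were chosen with earlier results of these data known. Of 76 loci entered in the ER lists, members included, 74 were used, 1 was not listed and 1 was left out. The last, LOC_Os07g28820, was entered as IRE1. Its deposited description, a ribonuclease 2-5A family protein, did not contain the expected words, so the ER sensor may be missing from the lists. That locus stood at 1.26 and 1.31 FPKM in Sharbati and Lalat grain and at 28.5 and 31.4 FPKM in their roots. Lists drawn by words left out entries whose deposited description names the plastid. LOC_Os11g05556 stayed in, although an assembled transcript over it was matched to a chloroplastic signal recognition particle protein. It was below 1 FPKM in every library and entered no ratio. Of each list and comparison, up to 3 loci with the largest ratio among those reaching 5 FPKM could be named, and for each of the 4 genes the 3 genes of most similar profile. PDIL5-1, LOC_Os02g58139 and calls of 5 or fewer were named after their values had been seen. The same holds for LOC_Os12g07490, LOC_Os01g58194, LOC_Os11g11440, LOC_Os07g28820, LOC_Os05g26386, LOC_Os11g05556, PROLM3, PROLM9 and BiP5. Alternatives were 2 other pseudocounts, 2 other filters, 2 scalings, 4-fold in place of 2-fold, genes listed in 1 library kept, and the highest transcript only. Other sums of the storage protein and marker genes were added after seeing the data. Python 3.11.15, pandas 2.3.3 and numpy 2.4.6 were used, and the computation was tested on simulated data.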

Additional observations from a re-analysis of the deposited data

Results flagged for a closer look

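BiP1 differed between the cultivars in opposite directions in the 2 organs. Its log2 ratio of Sharbati to Lalat was 0.22 in grain and -1.41 in root, and 0.51 and -0.42 after median scaling. With 1 library in each group, the difference between organs was not tested.

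A transcript that the authors assembled and listed as unannotated overlapped BiP1. On the sheet named for Lalat root it stood at 33.6 FPKM, from 838790 to 842672 on chromosome 2, with a luminal-binding protein as its deposited match, and its level was 18.4% of the 183 FPKM of the BiP1 locus. No such transcript overlapped PDIL1-1, PDIL2-3 or bZIP50, or BiP1 in the other libraries.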

How the results depend on the processing

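No paired analysis was possible because each group has 1 library. Of 132 results recomputed on the 4 genes and the ER loci under other settings, 93 stayed on the same side of 2-fold with a shift under 1.5-fold. Neither pseudocount moved any of the 4 genes. The highest transcript only gave the main values again in all 22 of its results, which are among the 93. BiP1 and bZIP50 have 1 listed transcript each, so that setting could not move them. PDIL1-1 and PDIL2-3 have 2 and 3 listed transcripts, but only distinct values were summed, and sum and highest gave the same ratios. The setting therefore says nothing on how stable the ratios of the 4 genes are. Most of the rest moved with scaling, and what makes the libraries differ in their medians was not tested.

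Median scaling gave log2 ratios of -0.93 for PDIL1-1 in grain. In root it gave 0.65 for PDIL1-1, -0.67 for PDIL2-3, -0.42 for BiP1 and 0.11 for bZIP50. For grain over root in Sharbati it gave 1.43 for PDIL1-1, 1.38 for PDIL2-3 and -0.73 for bZIP50. In Lalat it gave 2.99 for PDIL1-1, 1.29 for PDIL2-3, 2.90 for BiP1 and 0.033 for bZIP50, which turned direction. Of the other ER loci it left 3 higher and 5 lower in grain, and 7 higher and 8 lower in root with a median of 0.12.

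Equal totals without the 100 highest genes gave, in root, 0.70 for PDIL1-1, -0.62 for PDIL2-3, -0.37 for BiP1 and 0.16 for bZIP50. For grain over root in Sharbati this gave 1.34 for PDIL1-1, 1.29 for PDIL2-3 and -0.82 for bZIP50, and in Lalat 3.21 for PDIL1-1, 1.51 for PDIL2-3, 3.12 for BiP1 and 0.25 for bZIP50, which again turned direction. Of the other ER loci 2 were higher in grain, and 7 were higher and 7 lower in root, with a median of 0.17.

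A pseudocount of 0.1 gave 14 lower ER loci in grain, and a pseudocount of 5 or a filter of 5 FPKM gave 0 higher in root. At 4-fold, 0 were higher and 2 lower in grain, and 0 higher and 7 lower in root. Depth limits Sharbati root most, where PDIL2-3 stood at 37.2 times the inferred value of 1 fragment.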

Other observations

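PDIL1-4, the isomerase second to PDIL1-1 in Lalat grain, was also overlapped by transcripts that the authors assembled and listed as unannotated. On the sheet named for Lalat grain these stood at 545 and 91.3 FPKM, beside 234 FPKM for the locus, and on the sheet named for Lalat root at 2.28 and 10.3 FPKM, beside 20.3 FPKM for the locus. None overlapped PDIL1-4 on the Sharbati sheets. Over all 74 ER loci, 39 were overlapped by 80 assembled transcripts.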
